A study of Mus musculus with 24 samples.

Results

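The genes described here encode the nuclear subunits of the 5 complexes of the mitochondrial respiratory chain in the mouse brain. They were chosen by name: all 85 protein-coding genes of the deposited table whose symbol begins with Nduf followed by a, b, c, s or v and a digit, is Sdha, Sdhb, Sdhc or Sdhd, or begins with Uqcr, Cox4 to Cox8 or Atp5, of 54532 genes in all. By these names 37 belong to complex I, 4 to complex II, 8 to complex III, 18 to complex IV and 18 to complex V. RNA came from the brains of 24 adult male WT C57Bl6 mice in 4 groups of 6, each infused by osmotic minipump for 2 weeks. The vehicle group received saline and is labelled control. The angiotensin II group received angiotensin II, a peptide that raises blood pressure, at 0.7 mg/kg/d, and is labelled hypertension. In the vehicle + amnion epithelial cells group and the group given angiotensin II + amnion epithelial cells, mice received the same infusions and human amnion epithelial cells injected into the tail vein, and by the study's methods the other mice were injected with saline. RNA was taken from brain hemispheres as bulk tissue, so fewer cells of a type and less RNA per cell cannot be told apart.

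The respiratory chain passes electrons from NADH and succinate to oxygen and uses the energy to make ATP. Complex I (NADH dehydrogenase) and complex II (succinate dehydrogenase) feed electrons in, complex III (cytochrome bc1) passes them to cytochrome c, complex IV (cytochrome c oxidase) reduces oxygen, and complex V (ATP synthase) makes ATP. Neurons depend on this chain for most of their ATP. Complexes I, III, IV and V also hold subunits encoded by the mitochondrial genome, whereas complex II is encoded in the nucleus alone.

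The libraries held 16536449 to 25308700 reads each, of which the 85 genes took 1.15 to 1.77%. The libraries fell into 2 sets by their total FPKM (read counts scaled by the depth of the library and the length of the gene) over all other genes, which was 270102 to 290006 in 18 libraries and 327467 to 337061 in 6. These 6 comprised replicates 5 and 6 of the vehicle group, replicate 5 of the angiotensin II group, replicate 6 of vehicle + amnion epithelial cells, and replicates 5 and 6 of angiotensin II + amnion epithelial cells. No label gives a reason for this split, and the group comparisons are given with and without these libraries. Defining markers of neurons, astrocytes, oligodendrocytes, microglia and endothelium were detected, and none of the genes in these lists was at 0 in all libraries.

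The plot of levels by complex shows the range of the subunit genes, of which 83 were detected above 0 in at least 6 mice. Complex IV held the most abundant mRNA and also the scarcest. Cox8a, which encodes a small structural subunit of complex IV, had the highest mean at 800.4 FPKM, followed in that complex by Cox6a1 at 590.7 FPKM and Cox4i1 at 408.7 FPKM. Among the other complexes the highest means were those of Atp5b, the catalytic beta subunit of ATP synthase, at 353.0 FPKM, Uqcr10 at 182.0 FPKM, Ndufa4 at 168.4 FPKM and Sdha, the flavoprotein of succinate dehydrogenase, at 101.2 FPKM. The median gene level was 125.6 FPKM in complex IV, 95.3 FPKM in complex III, 68.4 FPKM in complex I, 68.2 FPKM in complex V and 66.2 FPKM in complex II. Levels spanned 1168-fold within complex IV and 2.92-fold within complex II.

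**Figure D1:**
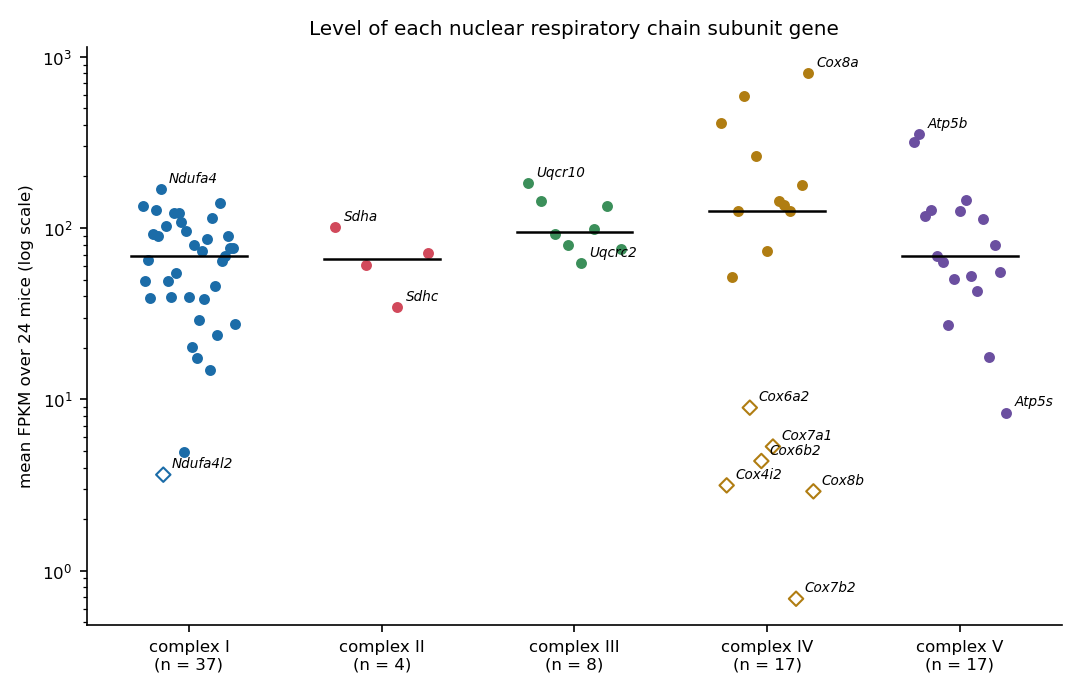
Mean FPKM over 24 mice (vertical axis, log scale) of the 83 detected genes in each complex (horizontal axis). Filled points are genes, open diamonds are isoforms known for restricted expression, and bars are medians. Cox8a at 800.4 FPKM is the highest point and the diamonds lie below 10 FPKM.

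These levels depend on the length by which reads were divided. The table uses a length that in 17 of the 83 genes was more than 3 times the length of the GENCODE M21 transcript with the longest coding sequence. The largest ratio, 12.4, was that of Ndufb2, a complex I subunit whose mean was 4.96 FPKM with the deposited length and 61.3 with the transcript length. Atp5l, the g subunit of ATP synthase, went from 17.8 to 210.5 in the same way, with a ratio of 11.8. With transcript lengths the median over complex V was 203.3 and the highest of the 5, ahead of complex III at 174.3 and complex IV at 168.3, and Cox4i1 at 850.3 was the most abundant gene. Ndufa4 is counted here with complex I by its name, although its protein is known to belong to complex IV, and moving it with its paralogue Ndufa4l2 left both medians at 68.4 and 125.6 FPKM.

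Several subunits have a second gene of restricted expression, and in this tissue the widely expressed member of each pair was the more abundant in all 24 mice. Cox4i1 exceeded Cox4i2, a form known from lung and vascular cells, by 98.8-fold to 185-fold over the mice. Cox6a1 exceeded Cox6a2, the form known from heart and skeletal muscle, by 49.6-fold to 79.6-fold. Cox7a2 exceeded the muscle form Cox7a1 by 19.6-fold to 40.8-fold, the narrowest margin of these pairs. Cox6b1 exceeded the testis form Cox6b2 by 48.6-fold to 83.2-fold, and Ndufa4 exceeded Ndufa4l2 by 34.0-fold to 75.8-fold. Cox7b2 had only 2 to 12 reads per library and Cox8b, a muscle form, 11 to 36, so their ratios to Cox7b and Cox8a are loosely set. Cox8c, known from testis, had 0 reads in each of the 24 libraries, where a count of 0 allows up to 3 reads per library. A second gene that carries the symbol Atp5o, ENSMUSG00000116933, was also at 0 throughout, while the Atp5o of 51153 reads in all encodes the stalk subunit of ATP synthase.

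The c subunit of ATP synthase, which forms its rotating ring, is encoded by 3 genes whose mature proteins are alike. Atp5g3 had the highest level with 125.5 ± 23.4 FPKM (SD, n = 24), above Atp5g2 with 50.6 ± 12.3 FPKM and Atp5g1 with 27.0 ± 5.94 FPKM. The lowest Atp5g3 value, 99.6 FPKM, was above the highest of Atp5g2, 76.2 FPKM, so Atp5g3 led in every mouse. Atp5g2 and Atp5g1 did not overlap either, at 39.4 to 76.2 FPKM and 21.4 to 39.2 FPKM. For Atp5g2 every stretch of 100 bases in its transcript also occurs in a transcript of another annotated gene, so its level is uncertain.

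Whether angiotensin II changed these genes was asked by comparing the angiotensin II group with the vehicle group. The test was limma, a linear model fitted to all genes on log2(FPKM + 0.1), with 3 comparisons of groups and an interaction. None of the 83 genes passed at an adjusted p under 0.05, against 0% of all 27286 genes tested, and none passed at an unadjusted p under 0.05, against 1.21% of all genes higher and 1% lower. Their fold changes had a median of -0.08 on the log2 scale, against 0.02 over all genes tested, and 77 of the 83 values were below 0. Ndufa4l2, a paralogue of Ndufa4 induced at low oxygen, had the lowest p-value. Its vehicle mice ranged from 2.49 to 6.75 FPKM around a median of 3.24, and its angiotensin II mice from 1.97 to 5.52 around 2.49. The groups overlapped, and the log2 fold change was -0.34 with a standard error of 0.27 and an adjusted p of 0.994 with limma. Cox4i2 was 3.44 ± 0.97 FPKM in vehicle mice and 2.99 ± 0.94 FPKM in angiotensin II mice (SD, n = 6 each). The other 3 of the 5 lowest p-values were those of Ndufb11, Uqcrq and Atp5k, with log2 fold changes of -0.18, -0.18 and -0.19. Sdha had the lowest exact permutation p in this comparison, 0.232, with 103.7 ± 7.9 FPKM in angiotensin II mice against 98.5 ± 11.2 FPKM (SD, n = 6 each), and 5 of 6 angiotensin II mice lay above the vehicle mean.

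Whether amnion epithelial cells changed these genes in hypertensive mice was asked by comparing the angiotensin II + amnion epithelial cells group with the angiotensin II group, which also served in the comparison above. Again 0 of 83 genes passed at an adjusted p under 0.05 (0% of all genes with limma), and 0 at an unadjusted p under 0.05, against 1.09% of all genes higher and 1.45% lower. The median log2 fold change was 0.10, that of all genes -0.02, and 77 of 83 values were above 0. Cox7b2, a sparse isoform known from testis, had the lowest p-value. It ranged from 0.40 to 1.11 FPKM around a median of 0.91 in angiotensin II mice and from 0.27 to 0.73 around 0.59 with cells. The ranges overlapped, 0 of 6 treated mice lay above the angiotensin II mean, and the two-sided exact permutation p was 0.0909 for a log2 difference of -0.54. Ndufa4l2 went the other way, with 3.20 ± 1.49 FPKM in angiotensin II mice and 3.78 ± 0.81 FPKM with cells (SD, n = 6 each), a log2 fold change of 0.32 and a standard error of 0.27. Atp5s, an ATP synthase coupling factor, stood at 8.10 ± 0.69 and 8.66 ± 1.15 FPKM in the same groups. Ndufa2 and Ndufa8, accessory subunits of complex I, completed the lowest 5 p-values with log2 fold changes of 0.18 and 0.19.

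The vehicle + amnion epithelial cells group was compared with the vehicle group for the effect of the cells without hypertension. No gene of the 83 passed at an adjusted p under 0.05 (0% of all genes with limma) or at an unadjusted p under 0.05, where 1.12% of all genes were higher and 1.29% lower. The median log2 fold change was -0.11, that of all genes 0.01, and 78 of 83 values were below 0. Atp5k, the e subunit of ATP synthase, ranged from 92.0 to 183.8 FPKM around a median of 109.3 in vehicle mice and from 72.4 to 138.4 around 95.2 with cells. These groups overlapped, with a log2 fold change of -0.27, a standard error of 0.21 and an adjusted p of 0.995 with limma. Ndufs1, the largest subunit of complex I, had one of the few values above 0, a log2 fold change of 0.12 with a standard error of 0.11. Cox4i2, Ndufa1 and Cox7a2 completed the lowest 5 p-values, with log2 fold changes of -0.27, -0.23 and -0.18.

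The interaction asked whether the effect of the cells differed between the infusions. It was past the adjusted threshold for 0 of 83 genes (0% of all genes with limma) and past the unadjusted one for 0 of 83, against 1.18% of all genes higher and 1.36% lower. With limma voom on recovered reads, 0 genes of the whole table passed after adjustment in each of these 4 comparisons as well. The median interaction over the 83 genes was 0.21 on the log2 scale and that over all genes -0.03. Cox4i2 had the lowest p-value with an interaction of 0.42 and a standard error of 0.32, followed by Ndufb3, Ndufv3, Ndufa4l2 and Uqcr11 with 0.34, 0.29, 0.47 and 0.37. Over the 35 genes whose statistics were examined singly and the 3 group comparisons, 105 exact permutation tests gave p-values from 0.0909 to 0.972, where 6 against 6 mice allow a p of 0.00216 at the smallest.

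The number of libraries from the set of 6 differed between the groups and was 2 for vehicle, 1 for angiotensin II, 1 for vehicle + amnion epithelial cells and 2 for angiotensin II + amnion epithelial cells. With the set of each library as a term in the fit, the 83 genes had a median log2 fold change of 0.02 for angiotensin II against vehicle, -0.01 for the cells in angiotensin II mice, -0.00 for the cells in vehicle mice and -0.01 for the interaction. No gene of the 83 passed at an unadjusted p under 0.05 in that fit either, against 3.46%, 3.9%, 3.54% and 3.41% of all genes in the same order. Over the 18 libraries alone the medians were 0.04, -0.02, -0.00 and -0.02. Values below 0 numbered 28 of 83 for angiotensin II and 44 of 83 for the cells in vehicle mice with the set as a term, against 77 and 78 without it, as the plot of fold changes shows. The part of the library sets in the medians without the term was not tested further.

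**Figure D2:**
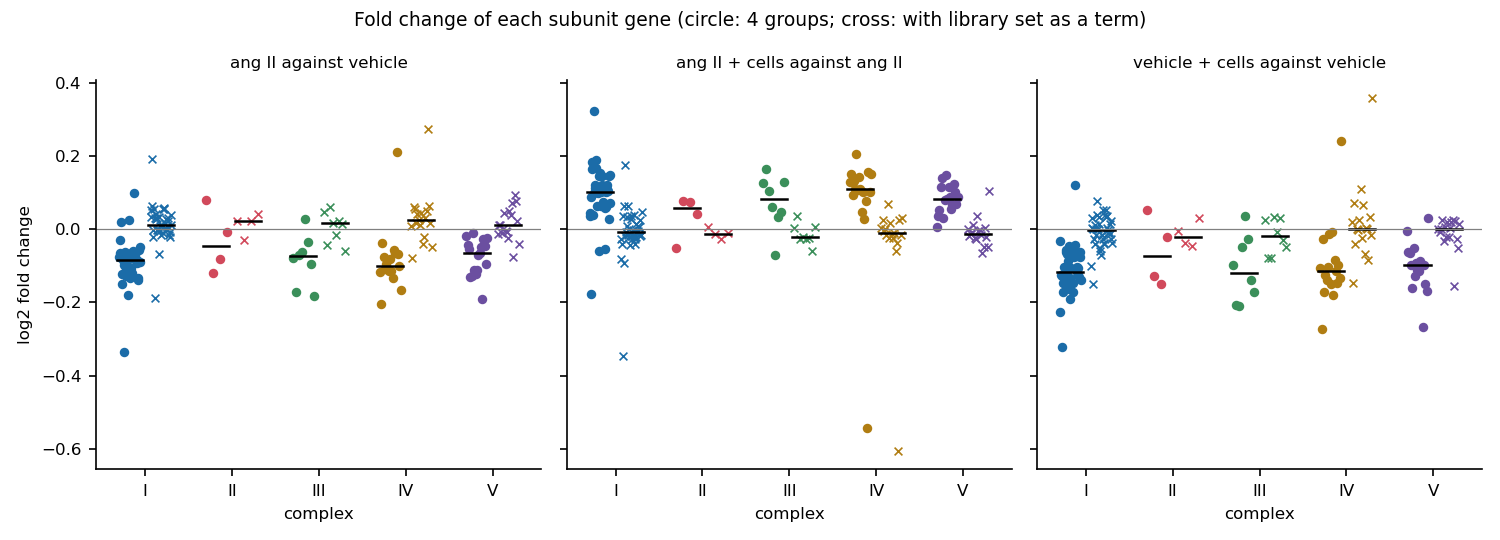
Log2 fold change (vertical axis) of each of the 83 genes by complex (horizontal axis) in 3 group comparisons. Circles come from the fit of the 4 groups, crosses from the fit with the library set as a term, and bars are medians by complex. For angiotensin II against vehicle the median over all 83 genes is -0.08 in the first fit and 0.02 in the second.

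The confidence intervals bound the size of a difference that could have been missed. They were narrower in the fit with the library set, which was drawn from the data. The median distance from a gene's estimate to the end of its 95% confidence interval was 0.39 on the log2 scale without the set term and 0.11 with it. With the term, the whole interval lay within 0.50 of 0, a 1.41-fold change, for 79 of 83 genes in angiotensin II against vehicle, for 80 in the cells with angiotensin II and for 80 in the cells with vehicle. It lay within 0.25, a 1.19-fold change, for 74, 73 and 73 genes. Among the genes outside the wider bound were Cox7b2 and Cox8b, which had few reads, and Ndufa12, described later. For Sdha, Sdhb, Sdhc and Sdhd, the 4 genes of complex II, every interval in these comparisons lay within 0.50. A p-value above the threshold does not show equal levels. For the interaction, 77 of 83 intervals lay within the wider bound with the term. Without the term, far fewer intervals lay within 0.50, with 48, 45 and 41 of 83 in the group comparisons in the same order and 15 for the interaction. Within 0.25 these numbers were 8, 9, 7 and 2.

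The summed FPKM of each complex shows the same in each mouse. The sum over the 85 genes was 8754 ± 2192 FPKM in vehicle mice, 8137 ± 1514 in angiotensin II mice, 8048 ± 1796 with vehicle and cells, and 8762 ± 2111 with angiotensin II and cells (SD, n = 6 each). Without the 6 libraries these sums were 7351 ± 236 (n = 4), 7539 ± 431 (n = 5), 7351 ± 618 (n = 5) and 7434 ± 405 (n = 4). The SDs were smaller in every group without the 6 libraries, and the 4 means then differed by less than any of these SDs. The sum over complex II was 245.5 to 267.7 FPKM over the 18 libraries and 284.6 to 304.3 over the 6.

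**Figure D3:**
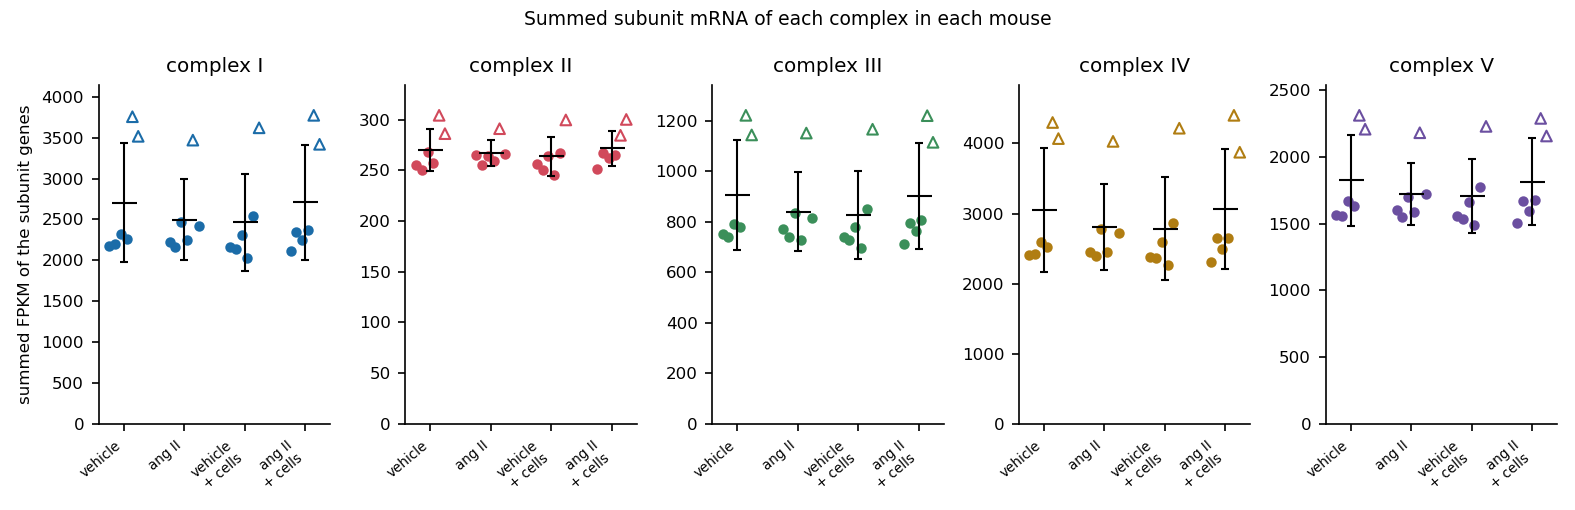
Summed FPKM of the subunit genes of each complex (vertical axes, from 0) in each of the 24 mice by group. Circles are the 18 libraries, open triangles the 6 libraries of high total FPKM, and bars the mean with SD over 6 mice. The triangles lie above every circle in all 5 panels.

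The contrast between the 2 sets of libraries exceeded the differences between groups, and it is given as a description with no test, since the sets were drawn from the data. The summed FPKM of the 85 genes was 6728 to 8294 in the 18 libraries and 10867 to 11971 in the 6. Of the 83 genes, 73 were higher in each of the 6 libraries than in any of the 18, against 11.2% of all genes, and 3 were lower without overlap, against 16.3% of all genes. The median difference was 0.69 on the log2 scale over the 83 genes and -0.07 over all genes tested. Over the 4905 genes with a mean of at least 10 FPKM, which are closer in level to most of the 83, the median was 0.20 and 63.2% of the differences were above 0, against 43.1% of all genes. By complex the median was 0.74 for complex IV, 0.70 for complex III, 0.70 for complex I, 0.69 for complex V and 0.43 for complex II.

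The summed mRNA of complex IV relative to that of complex II was 9.19 to 10.7 in the 18 libraries and 12.9 to 15.5 in the 6, and the ratio of complex I to complex II went from 8.28 to 9.50 up to 11.4 to 13.3. The ratio of complex I to complex IV stayed closer, at 0.885 to 0.915 in the 18 and 0.857 to 0.883 in the 6. The sets did not overlap in any of these 3 ratios.

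In complexes I, II and III 1 gene each was lower in the 6 libraries without overlap. Ndufb2 of complex I and Atp5s of complex V were also lower on average, with differences of -0.09 on the log2 scale each, but overlapped. Sdha stood at 102.3 to 110.8 FPKM in the 18 libraries around a median of 107.3, and at 79.9 to 89.5 FPKM in the 6 around 84.3. Its partner in the catalytic part of complex II, the iron-sulfur protein Sdhb, stood at 50.4 to 61.1 FPKM in the 18 and 76.5 to 85.1 FPKM in the 6. Sdha was thus lower and Sdhb higher in the 6 libraries, both without overlap. The membrane anchors Sdhc and Sdhd were higher, by 0.62 and 0.30 on the log2 scale. In complex I, Ndufs1, which carries iron-sulfur clusters, was lower in the 6 libraries, at 10.8 to 12.3 FPKM against 14.6 to 17.5. In complex III, the core protein Uqcrc2 was lower, at 49.4 to 55.5 FPKM against 63.1 to 69.3, while its partner Uqcrc1 was higher, with a median of 99.7 FPKM against 72.5. In complex V the alpha subunit Atp5a1 overlapped between the sets, at 298.8 to 332.0 and 311.9 to 329.9 FPKM, whereas the beta subunit Atp5b did not, at 310.0 to 356.9 and 405.2 to 421.4 FPKM. The other genes that overlapped were Ndufa12, Ndufb2, Cox7a1, Cox7b2, Cox8b and Atp5s.

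Coding length moved with this difference. FPKM divides reads by gene length, so total FPKM is higher where more reads fall on short genes. The sets were drawn by that total, so part of the relation with length may follow from how they were drawn. Spearman's rho between the difference and the coding length was -0.57 over 82 of the genes and -0.51 over 12051 protein-coding genes with a mean of at least 1 FPKM, a description across genes that share these libraries and are not independent. Genes with coding sequences under 300 bases had a median difference of 0.57 over all 247 such genes and 0.74 over the 22 respiratory chain genes among them. Between 1000 and 2000 bases the medians were -0.06 over 4623 genes and 0.35 over 10 respiratory chain genes. The 3 genes that were lower without overlap had coding sequences of 2181 bases (Ndufs1), 1992 bases (Sdha) and 1359 bases (Uqcrc2), against a median of 408 over the 83. Uqcrc1 with 1440 bases and Atp5b with 1587 were higher nevertheless. The part of length in the difference was not tested.

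**Figure D4:**
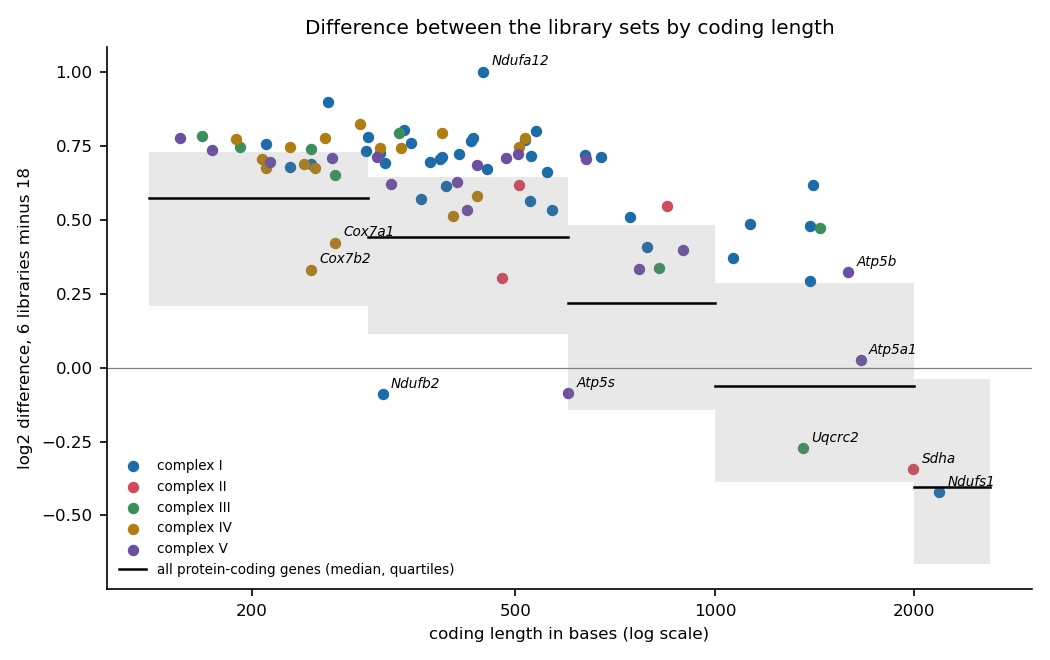
Difference in mean log2(FPKM + 0.1) between the 6 libraries and the 18 (vertical axis) against coding length in bases (horizontal axis, log scale). Points are the 83 genes coloured by complex, and black lines with grey bands are the median and quartiles of all protein-coding genes in 5 length ranges. Ndufs1, Sdha and Uqcrc2 lie below 0 at the long end.

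Other gene lists differed between the sets in part. All 76 cytosolic ribosomal protein genes were higher on average in the 6 libraries, with a median of 0.72, close to the 0.69 of the respiratory chain genes. Of these 76, 68 were higher without overlap, against 11.2% of all genes. Of the 13 subunits encoded by the mitochondrial genome, 10 were higher on average, with a median of 0.49, and their sum was 32762 to 41343 FPKM in the 18 and 45190 to 49817 in the 6. Cyc1, the cytochrome c1 of complex III that the name rule leaves out, was at 79.9 to 96.9 FPKM in the 18 and 119.8 to 138.4 in the 6. The 18 genes of the tricarboxylic acid cycle and pyruvate dehydrogenase, which supply NADH and succinate, had a median of 0.06 but split both ways. Without overlap 7 were higher and 5 lower, against 11.2% and 16.3% of all genes, and the differences ran from -1.28 for Pdha1 to 0.40 for Mdh2. The 19 regulators of mitochondrial biogenesis had a median of -0.35, against -0.07 over all genes tested. Of them 10 were lower and 1 higher without overlap, against 16.3% and 11.2% of all genes. Ppargc1a, a coactivator that drives mitochondrial biogenesis, was at 4.17 to 5.92 FPKM in the 18 and 3.13 to 3.54 in the 6. Assembly factors had medians of 0.22 for complex I, 0.48 for complex II, 0.34 for complex III, 0.19 for complex IV and 0.25 for complex V.

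Markers of other cell types moved with the sets as well. The choroid plexus markers Ttr, Folr1 and Kl summed to 351.5 to 768.0 FPKM in the 18 libraries and 833.2 to 1120 in the 6. Nearly all of that sum was Ttr, at 348.1 to 762.1 and 827.2 to 1112 FPKM, and Kl went the other way, with medians of 2.39 and 1.45 FPKM. The 5 pericyte and smooth muscle markers summed to 27.3 to 37.2 and 47.6 to 63.4 FPKM. Pvalb, the marker of parvalbumin interneurons, which are rich in mitochondria, was 146.1 to 204.2 FPKM in the 18 and 250.7 to 316.8 in the 6. Gad1, the marker of GABA neurons in the neuron list, went the other way, at 44.8 to 51.5 FPKM in the 18 and 32.9 to 36.1 in the 6. The endothelial sum was 47.2 to 64.1 against 74.5 to 91.7 FPKM, but only Cldn5 of its 4 markers was higher, by 0.78 on the log2 scale. Slco1a4 was lower without overlap, with a difference of -0.46, Flt1 and Pecam1 stood at -0.06 and -0.05 and overlapped, and the median over the 4 was -0.06. Acta2, a smooth muscle actin, was 5.58 to 10.1 FPKM and 21.8 to 31.6, whereas the pericyte marker Rgs5 overlapped. The neuron, astrocyte, microglia, erythroid and neutrophil sums overlapped between the sets, but some of their markers did not. Of 5 neuron markers, Slc17a7 and Rbfox3 were higher and Gad1 and Syt1 lower in the 6 libraries without overlap. Of 4 astrocyte markers Gfap was higher and Slc1a3 lower, and of 4 microglia markers Tmem119 was higher and Cx3cr1 lower. Of all genes, 11.2% were higher and 16.3% lower without overlap. The part of cell composition in the values of the 6 libraries was not tested.

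In the group comparisons no gene of the assembly factor, mitochondrial genome, biogenesis, tricarboxylic acid cycle or ribosomal protein lists passed at an unadjusted p under 0.05 in the fit of the 4 groups. With the library set as a term, 4 genes of these lists passed for angiotensin II (Rpl7a, Dld, Ppargc1b and Nubpl), 4 for the cells in angiotensin II mice (Ppargc1b, Fh1, Lyrm7 and Cox19), 0 for the cells in vehicle mice and 5 for the interaction (Dld, Ppargc1b, Fh1, Rpl7a and Rpl30). These counts are among 183 genes tested, which include 5 subunits and carriers outside the name rule. Of all genes, 3.46%, 3.9%, 3.54% and 3.41% passed in the same order. None of the named genes passed after adjustment with limma. Ppargc1b, a coactivator related to Ppargc1a, had a log2 fold change of -0.27 with angiotensin II and 0.38 with the cells in angiotensin II mice, comparisons that share the angiotensin II group. It was singled out after its values were seen, and its adjusted p was 1 with limma in both. Of the cell markers, only S100a9 and S100a8 of neutrophils passed at an unadjusted p under 0.05 without the term, both for angiotensin II against vehicle, with log2 fold changes of 0.98 and 0.78 and an adjusted p of 0.994 with limma. With the term, both passed again for angiotensin II, as did Acta2 and Rgs5, and Rgs5 also passed for the cells in angiotensin II mice. That made 4 and 1 of the 36 markers tested, against 3.46% and 3.9% of all genes.

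Among the 18 libraries the subunit genes varied slightly more between mice than genes with a mean of at least 10 FPKM. The SD of log2 level had a median of 0.10 over the 83 genes, compared with 0.08 over all 4905 genes with a mean of at least 10 FPKM. Uqcrc2 and Sdha were the steadiest, each with an SD of 0.03. The largest SDs were those of Cox7b2 with 0.69, Ndufa12 with 0.50 and Cox8b with 0.47, and of these only Ndufa12 was abundant. Restricted isoforms were also compared with markers of the cells in which they are known, in 5 pairs over the 18 libraries. Cox4i2 and the pericyte marker Rgs5 had a Pearson r of 0.04 (permutation p = 0.869) and a Spearman rho of 0.13 (permutation p = 0.614), and r was -0.25 without the 2 libraries farthest from the median of Rgs5. Ndufa4l2 and Rgs5 had r = -0.30 (permutation p = 0.231) and rho = -0.37 (permutation p = 0.136), and r was -0.15 without 2 libraries. For Ndufa4l2 with Cox4i2, Cox6a2 with Pvalb and Cox7a1 with Acta2, r was 0.10, -0.22 and -0.19, rho -0.20, -0.17 and -0.08, and r without 2 libraries -0.16, -0.23 and 0.00, with permutation p-values of r of 0.705, 0.372 and 0.452 and of rho of 0.425, 0.493 and 0.741. After Benjamini-Hochberg adjustment over the 5 pairs the lowest p for r was 0.753.

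Ndufa12, an accessory subunit of complex I, was singled out after its values were seen. It lies on the plus strand at chr10:94198720-94221443 of GRCm38. A processed pseudogene, Gm15920, lies on chromosome 5 at chr5:130188395-130188796. The 402 bases of Gm15920 align without a gap to positions 49 to 450 of the Ndufa12 coding sequence, counted from the A of the start codon, with 2 substitutions, A147G and T426C (the Ndufa12 base first), and 99.5% identity. Both windows around these positions are shown from the GENCODE M21 transcripts, 5′ to 3′, because the aligned stretches of the pair differ only there. The differing base is in capitals.
Ndufa12, positions 117 to 177: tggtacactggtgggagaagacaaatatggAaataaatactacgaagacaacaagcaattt
Gm15920, positions 69 to 129: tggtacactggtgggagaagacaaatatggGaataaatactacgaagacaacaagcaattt
Ndufa12, positions 396 to 450: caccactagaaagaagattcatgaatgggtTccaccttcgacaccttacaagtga
Gm15920, positions 348 to 402: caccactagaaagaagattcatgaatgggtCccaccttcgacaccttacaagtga

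Reads assigned to Ndufa12 were 35.3 to 92.8 RPM (reads scaled to library depth only) in the 18 libraries, a 2.63-fold range, and those of Gm15920 were 13.7 to 34.3 RPM, a 2.50-fold range. Mice with many Ndufa12 reads had few Gm15920 reads, with a Pearson r of -0.93 over the 18 libraries, given as a description because the pair was chosen after its values were seen. Summed, the pair had 65.5 to 106.7 RPM, a 1.63-fold range, and the SD of log2 level was 0.50 for Ndufa12 and 0.22 for the sum. The share of the summed reads that went to Ndufa12 fell into 2 ranges with a gap between them, 52.6 to 58.7% in 14 mice and 72.1 to 87.2% in 10. The 10 mice were 3 of 6 in the vehicle group, 3 of 6 in the angiotensin II group and 2 of 6 in each group with cells, so each group had mice in both ranges. So had the library sets, since 2 of the 6 libraries lay in the lower range and 4 in the upper. The cause of the split was not tested.

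**Figure D5:**
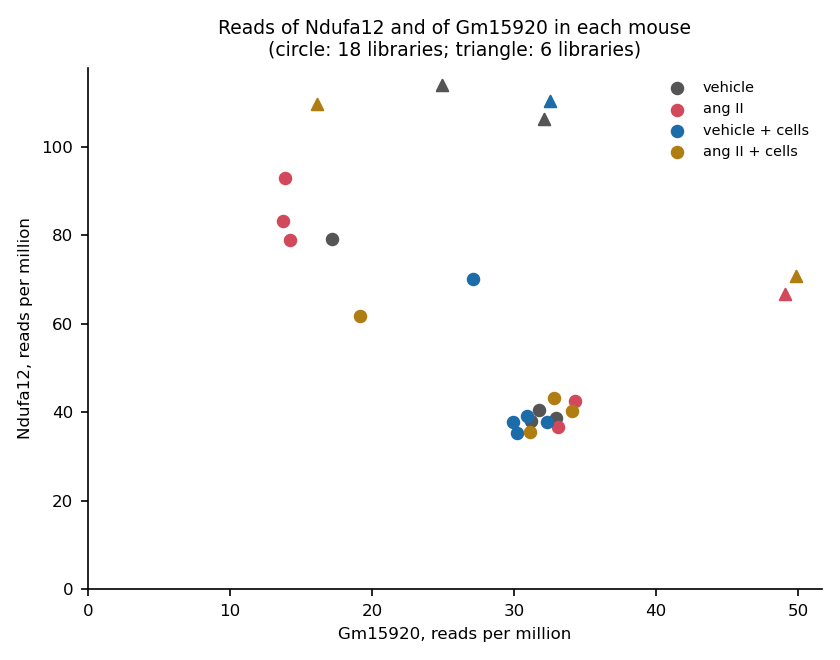
RPM (reads scaled to library depth) of Ndufa12 (vertical axis) against those of its processed pseudogene Gm15920 (horizontal axis) in each of the 24 mice, coloured by group. Circles are the 18 libraries and triangles the 6 libraries of high total FPKM. In 12 of the 18 libraries Ndufa12 lies between 35.3 and 43.3 RPM, and in the other 6 it is higher with fewer Gm15920 reads.

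Ndufa12 was not the only subunit gene with near copies. Of the 85 transcripts examined, 20 shared at least 1 stretch of 100 bases with a transcript of another annotated gene, and in 9 more than 20% of such stretches were shared. For abundant genes the share was 100% in Atp5g2 (with Gm10175), 61.3% in Atp5l, 44.4% in Cox7c, 38.3% in Ndufa12, 33.4% in Ndufb4 (with Ndufb4c), 32.7% in Atp5h, 27.0% in Ndufs5 and 21.2% in the detected Atp5o. How the authors' counting divided reads between such copies is not given in the sources used here, so the levels of these genes are uncertain.

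Promoters of 68 of the 83 genes were found in RefSeq (GRCm38.p6), from 250 bases before to 50 bases after each start. Binding motifs of 3 factors known to act at genes of the respiratory chain were searched on both strands, with 0 overlaps between matches of different motifs in these promoters: the NRF1 core CGCATGCG, the GABPA motif CCGGAAGT and the YY1 motif AAGATGGC. The NRF1 core was present for 9 of 68 genes (13.2%), against 2.07% of 27025 genes. The YY1 motif was present for 10 of 68 (14.7%), against 3.19%, and the GABPA motif for 5 of 68 (7.35%), against 4.31%. The 22 genes with any of these motifs were 10 of 32 in complex I, 3 of 5 in complex III, 2 of 13 in complex IV and 7 of 15 in complex V. None of the 3 complex II genes with a promoter had any. Promoters of the respiratory chain genes held a median of 19 CpG dinucleotides, against 7 over all genes, and those of the 4 restricted isoforms found held 8.5. These matches are a description of letters in a window and were compared by no test.

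The 4 promoters that hold the NRF1 core within 140 bases before the start are shown as examples of that motif. Their genes, of 2 complexes, were higher in the 6 libraries without overlap, but so were 73 of the 83 genes. A link between the motif and the library sets was not tested. Each is given 5′ to 3′ on the gene's strand, ends at the base before the start, and has the motif in capitals.
Atp5g2, chr15:102671048-102671187, minus strand: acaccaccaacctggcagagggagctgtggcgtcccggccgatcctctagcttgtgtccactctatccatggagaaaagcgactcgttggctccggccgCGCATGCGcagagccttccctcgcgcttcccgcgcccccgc
Atp5k, chr5:108434400-108434539, minus strand: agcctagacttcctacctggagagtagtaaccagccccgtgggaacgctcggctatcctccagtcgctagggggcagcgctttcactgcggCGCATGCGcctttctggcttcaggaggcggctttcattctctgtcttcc
Ndufa11, chr17:56717622-56717761, plus strand: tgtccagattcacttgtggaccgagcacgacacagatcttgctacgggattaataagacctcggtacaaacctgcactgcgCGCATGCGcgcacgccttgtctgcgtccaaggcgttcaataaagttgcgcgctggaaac
Ndufa8, chr2:36049339-36049478, minus strand: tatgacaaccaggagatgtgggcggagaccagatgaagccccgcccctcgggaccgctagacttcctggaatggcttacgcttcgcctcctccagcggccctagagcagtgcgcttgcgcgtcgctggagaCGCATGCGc
Atp5k stood at 72.4 to 135.9 FPKM in the 18 libraries and 138.4 to 183.8 in the 6, and Atp5g2 at 39.4 to 53.3 and 66.8 to 76.2. Ndufa8 stood at 89.3 to 121.6 and 156.5 to 197.2 FPKM, and Ndufa11, a membrane subunit of complex I, at 48.1 to 64.5 and 86.9 to 97.0.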

How the data were processed

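Per the labels, brain RNA of 24 mice was sequenced, and each mouse took its group and replicate number from its label. The authors deposited FPKM values for each mouse with the gene length they divided by, from poly-T selected mRNA mapped to the mouse genome. GRCm38 is named in the submitters' processing notes, as is DESeq 1.10.1. The aligner, the counter and the use of strand are not given in the sources used here. Division by gene length understates genes with a long annotated length, and reads from near copies or an antisense gene cannot be told apart.

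Whole reads were recovered from FPKM multiplied by length (100% of values within 0.1 of a whole number). The totals set the precision, and limits for counts of 0 (3 reads) cover counting error only. limma 3.58.1 (R 4.3.3) was run on log2(FPKM + 0.1), which understates changes of low genes, with the 4 groups, eBayes with a trend and Benjamini-Hochberg adjustment over 27286 genes above 0 in at least 6 mice. Members were read out of that fit. For single genes a two-sided exact permutation test compared 6 against 6 mice. Full statistics were given for the 5 lowest p-values in each comparison, the highest and lowest gene of each complex, the restricted isoforms and their counterparts, the c subunit genes and complex II. The fit was tested on simulated data that held no library sets, so that test does not show which changes the fit could miss here. Alternatives covered the pseudocount, filters, scaling, weights, voom, the library sets, the replicate block and each mouse left out. The members and lists were chosen with earlier results of these data known. No label says how the samples were handled, so p-values measure only the spread between them, which may be in part technical. Python 3.11.15, pandas 2.3.3 and scipy 1.17.1 were used. The oligodendrocyte marker sum is not reported here.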

Additional observations from a re-analysis of the deposited data

Results flagged for a closer look

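Dixon's test was applied to the FPKM values of 35 respiratory chain genes within each group of 6 mice, 140 groups of values in all, and 49 held a mouse whose gap to the nearest other exceeded the 95% critical value. Chance flags about 1 in 20 groups. The genes share their libraries, so these flags are not independent. Angiotensin II replicate 5 was the highest of its group in 25 genes and the lowest in 3, which were Ndufs1, Sdha and Uqcrc2. Its Cox4i1 was 550.2 FPKM, against 333.7 to 374.1 in the other 5 mice, and its Sdha was 87.9 FPKM, against 103.9 to 108.9. Vehicle + amnion epithelial cells replicate 6 was the highest of its group in 17 genes and the lowest in 2, which were Sdha and Uqcrc2. Its Sdhc was 49.6 FPKM, against 28.7 to 30.4 in the others. These libraries are the only members of the set of 6 in their groups. Outside that pattern, angiotensin II replicate 6 was the highest in 1 gene, Atp5s, with 9.41 FPKM against 7.43 to 8.13. Vehicle replicate 5 was the highest in 1 gene, Cox7a1, with 9.57 FPKM against 4.10 to 5.83. The causes of these values were not tested.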

How the results depend on the processing

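Of the alternatives to each comparison, none made any respiratory chain gene pass after adjustment. In all 4 comparisons 0 genes of the 83 passed at an unadjusted p under 0.05 under every alternative but the replicate block, leaving out single mice included (0 to 0). With the replicate number as a block, 2 passed for the cells in vehicle mice (Atp5k and Ndufa1) and 6 for the interaction (Ndufb3, Atp5k, Uqcr11, Ndufv3, Ndufa2 and Uqcrb), in a fit that put 3.8% and 5.19% of all genes past that threshold. The numbers are not known to pair the mice. Same-numbered mice correlated between -0.22 and 0.80 over 36 pairs, 28 of them above 0.1 (median 0.35), against a median of 0.07 and 88 of 180 pairs with different numbers. The mean correlation with libraries of other groups, taken for each number, was highest for the own number in only 5 of 24 libraries. All 6 libraries of high total FPKM carry number 5 or 6, so the numbers overlap in part with the library sets. The parts of number and set in these correlations and in the block fit were not told apart. Array weights gave 1 gene of the whole table past the adjusted threshold for the interaction, Tnni3k, named after its value was seen, and limma voom on recovered reads gave 0 in each comparison. The medians of the respiratory chain genes moved by less than the spread between mice, an SD of 0.31 on the log2 scale. That spread is wider than each of the medians, so it cannot show that they were stable. In the order of the comparisons above, 4, 3, 0 and 2 alternatives turned the sign of the median. Leaving out 1 mouse gave medians of -0.19 (without angiotensin II replicate 5) to 0.01 (without vehicle replicate 5) for angiotensin II, -0.00 (without angiotensin II + amnion epithelial cells replicate 5) to 0.20 (without angiotensin II replicate 5) for the cells in angiotensin II mice, -0.23 (without vehicle + amnion epithelial cells replicate 6) to -0.01 (without vehicle replicate 5) for the cells in vehicle mice, and 0.11 (without angiotensin II + amnion epithelial cells replicate 5) to 0.34 (without vehicle + amnion epithelial cells replicate 6) for the interaction. Vehicle replicate 6 and angiotensin II + amnion epithelial cells replicate 6 moved medians by over 1.5 times as well (-0.01 for angiotensin II without the former, 0.02 for the cells in angiotensin II mice without the latter). Summing the reads of Ndufa12 and Gm15920 and dividing by transcript length were chosen after seeing the data. Counting Ndufa4 and Ndufa4l2 with complex IV left the medians of complexes I and IV at 68.4 and 125.6 FPKM. Low counts limit Cox7b2 and Cox8b.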
